A study of Mus musculus with 9 samples.

Results

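The genes described here are the receptors, coreceptor, decoys and binding protein of the IL-1 cytokine family. They were taken from the epidermal count table by gene symbol, as Il1r1, Il1rl2, Il1rl1, Il18r1, Il1rap, Sigirr, Il1r2 and Il18bp, which gave 8 of the 52550 genes listed, each with a single entry. RNA sequencing was performed on epidermal ear sheets of wild type C57BL/6 mice of 8 weeks, with 3 libraries in each of 3 groups. VAS + H2O, the control, had Vaseline on the ears for 5 days and water by gavage for 10 days. IMQ + H2O, the model, had imiquimod, an agonist of Toll-like receptor 7 that produces psoriasis-like skin inflammation, in place of Vaseline. IMQ + XYF had imiquimod and the XYF decoction (Xiao-Yin-Fang, a mixture of plant medicines) at 23.3 mg/g in place of water. Comparing these groups asks how the receptor side of the IL-1 family was set in inflamed epidermis, and whether XYF moved it.

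IL-1 family cytokines act through a ligand-binding receptor chain that recruits a second chain, Il1rap for most ligands and Il18rap for IL-18, and the joined intracellular domains then pass the signal through Myd88 and Irak kinases to NF-kappaB. Several family members hold this in check. Il1r2 binds IL-1 but has no signalling domain, Il18bp is a secreted protein that captures IL-18, and Sigirr is a receptor of the family that dampens signalling by the others. Keratinocytes make and respond to IL-1 and IL-36 cytokines, and the IL-36 receptor in particular is known for its part in psoriasis.

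The libraries held 30298275 to 64771160 counts, so that a count of 3, taken as the floor of detection, corresponded to 0.0463 to 0.0990 CPM (the count scaled to a common library size), which covers counting error only. All 7 keratinocyte markers were detected in every library, and their summed level was 45370 to 57568 CPM in VAS + H2O, 57238 to 69407 CPM in IMQ + H2O and 57740 to 64203 CPM in IMQ + XYF. Nothing in the sources used here states that each library came from different mice, and the methods speak of 2 mice as the source of the ear sheets without saying if that holds per library, so the p-values measure the spread between these libraries, which may be technical. Cartilage markers summed to 185 to 441 CPM in VAS + H2O, 36.6 to 78.3 CPM in IMQ + H2O and 133 to 191 CPM in IMQ + XYF, and neutrophil markers to 14.7 to 18.4 CPM, 280 to 2179 CPM and 588 to 918 CPM. Most of the neutrophil sum was Cxcr2 in VAS + H2O (mean 11.4 CPM) and S100a8 and S100a9 in IMQ + H2O (means 410 and 448 CPM). Whole sheets do not show which cells these transcripts came from. Levels below are CPM with TMM normalization, and comparisons are edgeR quasi-likelihood tests with Benjamini-Hochberg adjustment over all genes tested. Genes were taken as differentially expressed (DEGs) where the adjusted p was 0.05 or less and the log2 fold change was 1 or more in either direction.

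The receptors and decoys were expressed at levels that differed far more between genes than between groups. 5 of the 8 genes lie side by side on chromosome 1, on the plus strand of GRCm38, within 427 kb. Their order is Il1r2 (chr1:40074079-40125231), Il1r1 (chr1:40225080-40317257), Il1rl2 (chr1:40324610-40367562), Il1rl1 (chr1:40429570-40465415) and Il18r1 (chr1:40465552-40500854), and the next protein-coding gene is Il18rap. Il1rap lies apart at chr16:26581704-26730117 on the plus strand, and Sigirr (chr7:141091175-141100572) and Il18bp (chr7:102014885-102018690) lie on the minus strand of chromosome 7. Adjacency on chromosome 1 did not go with a common level, since this run of genes holds the 2 highest and the 2 lowest of the 8.

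Per kilobase of exon, the decoy Il1r2 and the IL-36 receptor chain Il1rl2 stood at the top, with means over all 9 libraries of 28.8 and 27.6 CPM per kb. Il1r1, the signalling receptor of IL-1, followed at 6.88 CPM per kb, the shared chain Il1rap at 4.82, Sigirr at 3.53, Il18bp at 1.76 and the IL-18 receptor chain Il18r1 at 0.468 CPM per kb. Il1rl1, which encodes the IL-33 receptor ST2, came last at 0.00680 CPM per kb. In VAS + H2O, Il1r2 (36.2 CPM per kb) lay above Il1rl2 (26.2 CPM per kb) with no overlap between libraries. In IMQ + H2O the means were 26.2 and 28.9 CPM per kb, in IMQ + XYF 24.0 and 27.6 CPM per kb, and the libraries of these 2 genes overlapped in both groups. Il1rap and Sigirr overlapped in VAS + H2O, and all other neighbours in the order were apart in each group. The order depends on the length used: with the longest transcript in place of the union of exons, 4 of the 8 genes changed rank, Il1r2 and Il1rl2 (48.6 and 45.6 CPM per kb) overlapped in VAS + H2O, and Il1rl2 lay above Il1r2 without overlap in both imiquimod groups.

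**Figure D1:**
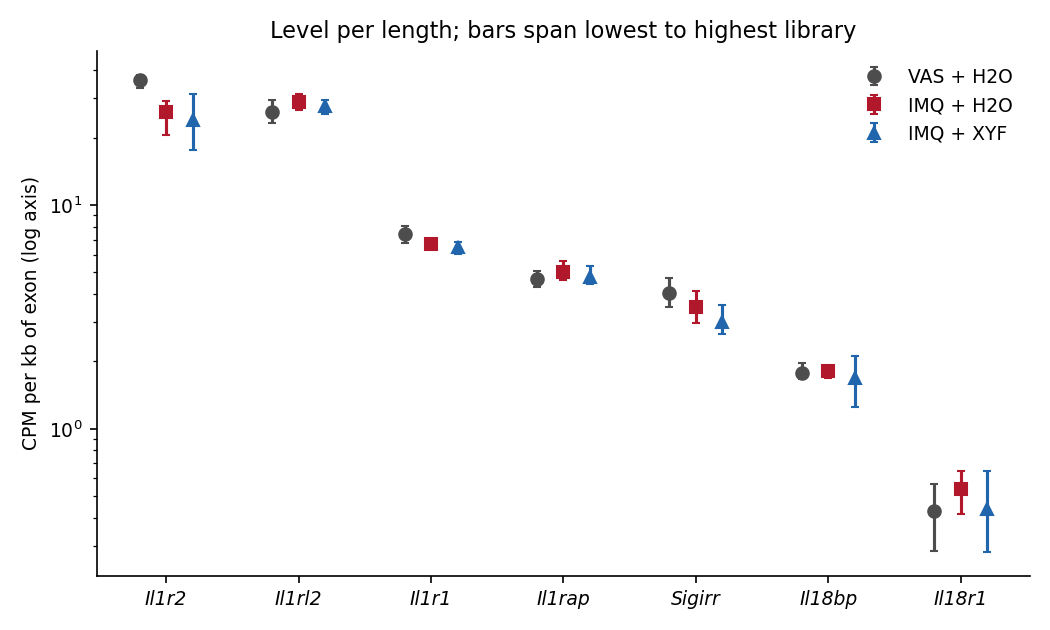
Level of the 7 genes with counts in every library, in CPM per kilobase of exon on a log axis, ordered by the mean over all 9 libraries. Points are group means and bars run from the lowest to the highest of 3 libraries; Il1r2 and Il1rl2 share the top at 24.0 to 36.2 CPM per kb and Il18r1 lies lowest, near 0.5 CPM per kb.

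After imiquimod, none of the receptor and decoy genes was called, and 3 of the 10 ligands and antagonists of the same family were called, all higher. 7 of the 8 genes passed the low-count filter, and the one that did not was Il1rl1. By edgeR, 0 of the 7 were DEGs between IMQ + H2O and VAS + H2O, and 0 passed at adjusted p alone. Of all 18009 genes tested, 7.68% were DEGs and 22.1% passed at adjusted p alone. At an unadjusted p under 0.05 there was 1 of 7, Il1r2, against 37.9% of all genes, and DESeq2 also called 0 DEGs among the 7. For 6 of the 7 the 95% interval of the fold change lay wholly inside a log2 change of 1 in either direction, as it did for 57.1% of all genes tested, and Il18r1 was the exception. The median absolute log2 fold change was 0.17 over the 7 genes and 0.35 over all genes.

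Il1r2, the decoy receptor for IL-1, had 73.1, 63.5 and 70.4 CPM in VAS + H2O, 39.3, 54.8 and 55.9 CPM in IMQ + H2O, and 60.2, 43.6 and 33.6 CPM in IMQ + XYF. Every library of both imiquimod groups lay below every control library, and the IMQ + XYF libraries ran through and past the range of IMQ + H2O. Against VAS + H2O, the log2 fold change in IMQ + H2O was -0.48 ± 0.15 (SE), with a 95% interval of -0.82 to -0.13 and an adjusted p of 0.0579 by edgeR. It missed the threshold, whereas DESeq2 gave -0.46 with an adjusted p of 0.0373. Il1r2 was the only one of the 7 genes whose libraries did not overlap between these groups. Lower without overlap was the state of 21.6% of all genes tested. Adjusted p ranged from 0.0373 to 0.412 over the alternatives, and leaving out IMQ + H2O replicate 1, the lowest library of its group, gave a log2 fold change of -0.29.

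Several T cell genes were also lower after imiquimod. Of the 7 markers of dendritic epidermal and other T cells, 4 were lower in IMQ + H2O at adjusted p of at most 0.05 by edgeR (Cd3d, Cd3e, Cd3g and Cd247, parts of the T cell receptor complex) and 1, Thy1, was higher. Of all genes tested, 22.1% passed at adjusted p alone in either direction, and 12.7% passed as higher. Cd3e averaged 11.3 CPM in VAS + H2O and 6.89 CPM in IMQ + H2O, with a log2 fold change of -0.73 (adjusted p = 0.0209). Summed over the list, the level was 113 to 119 CPM in VAS + H2O, 158 to 181 CPM in IMQ + H2O and 156 to 207 CPM in IMQ + XYF, a sum that Thy1 dominated with a mean of 53.5 CPM in VAS + H2O and 127 CPM in IMQ + H2O. Prf1, which encodes the pore-forming protein perforin of cytotoxic lymphocytes, was the gene most like Il1r2 over the 9 libraries (Pearson r = 0.97 of log2 CPM). It was the closest of 14769 genes compared, and 1810026B05Rik was next, also at 0.97 after rounding. For each of the 7 genes the closest match had an r of 0.91 to 0.97. In whole sheets, fewer cells of a type and less RNA per cell cannot be told apart, and the part of T cells in the level of Il1r2 was not tested. Other annotated genes overlap Il1r2. Gm37347, on the same strand inside Il1r2, had 3.14% to 5.95% as many counts as Il1r2 itself, and Gm16894, on the opposite strand, at most 1.27%.

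**Figure D2:**
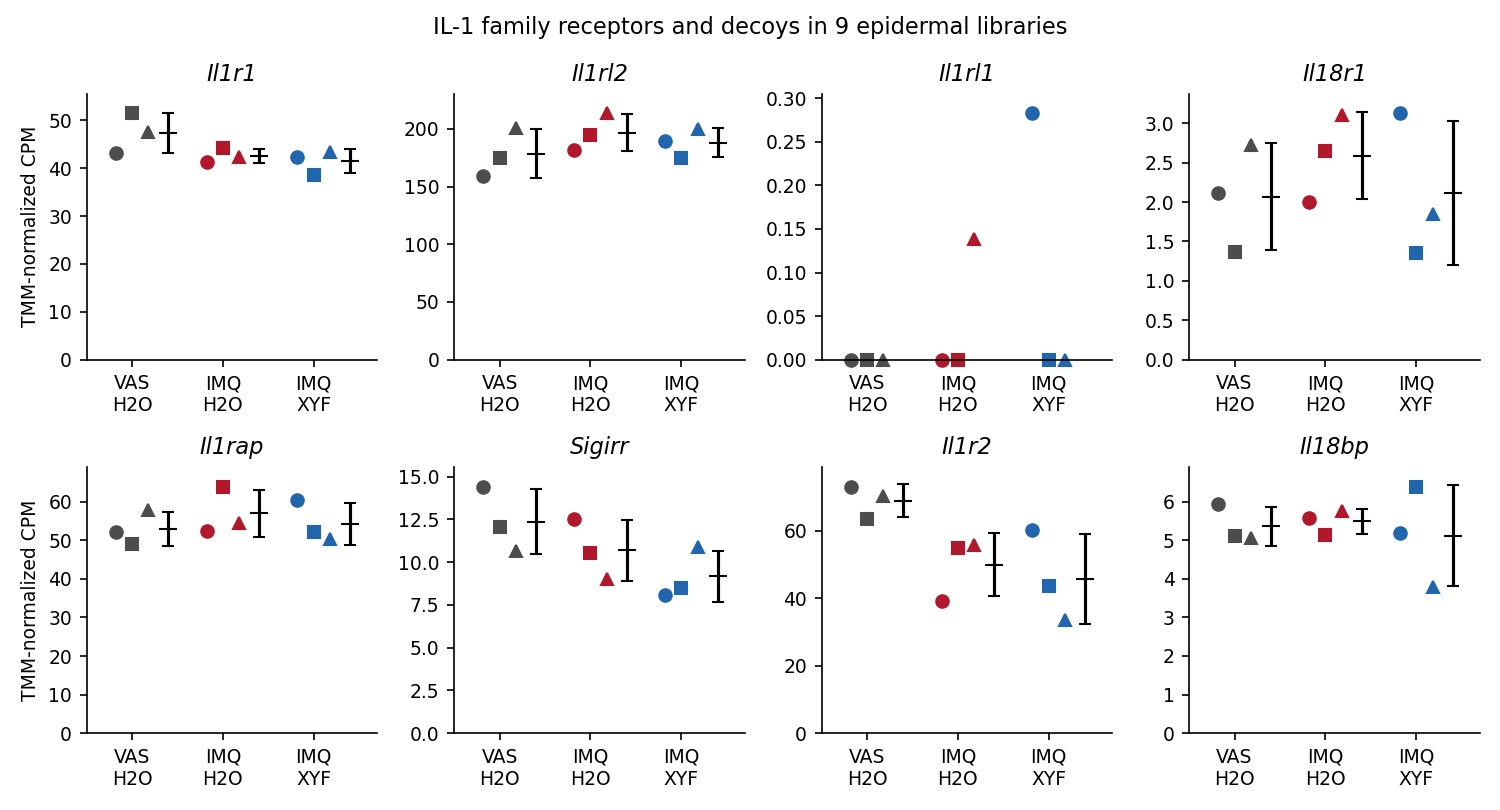
TMM-normalized CPM of each receptor, coreceptor, decoy and binding protein in the 9 libraries, with circles, squares and triangles for replicates 1, 2 and 3 and the bar beside each group for its mean ± SD (n = 3). All Il1r2 libraries of the imiquimod groups (33.6 to 60.2 CPM) lie below the control libraries (63.5 to 73.1 CPM), and Il1rl1, drawn without mean, has counts in 2 libraries only.

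Il1r1, the signalling receptor that shares its ligands with Il1r2, had 43.2, 51.5 and 47.6 CPM in VAS + H2O, 41.2, 44.1 and 42.3 CPM in IMQ + H2O and 42.3, 38.7 and 43.4 CPM in IMQ + XYF. The 6 imiquimod libraries were close together, and VAS + H2O replicate 1 fell among them, so the groups overlapped. The log2 fold change in IMQ + H2O was -0.17 (95% interval -0.40 to 0.06, adjusted p = 0.242 by edgeR). The group means were 47.4 ± 4.17, 42.5 ± 1.47 and 41.5 ± 2.49 CPM (SD, n = 3).

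Il1rl2, the IL-36 receptor chain, had the highest CPM of the 8 genes. Its libraries held 159, 175 and 201 CPM in VAS + H2O, 182, 195 and 214 CPM in IMQ + H2O and 189, 175 and 200 CPM in IMQ + XYF. All 3 groups overlapped, with a spread of 1.34-fold between the lowest and the highest of the 9 libraries. The median was 1.96-fold over all genes that passed the filter, which were not matched to Il1rl2 for level. The log2 fold change in IMQ + H2O was 0.13 (95% interval -0.13 to 0.39, adjusted p = 0.434 by edgeR). A processed pseudogene inside Il1rl2, Gm17970, had 2.22% to 4.15% as many counts as Il1rl2.

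Il1rap, the chain that Il1r1, Il1rl1 and Il1rl2 share, was the steadiest of the 7 genes, with a spread of 1.30-fold over the 9 libraries. It had 52.2, 49.1 and 57.8 CPM in VAS + H2O, 52.5, 63.9 and 54.5 CPM in IMQ + H2O and 60.5, 52.1 and 50.2 CPM in IMQ + XYF. The groups overlapped throughout, with a log2 fold change of 0.09 in IMQ + H2O (95% interval -0.16 to 0.34, adjusted p = 0.567 by edgeR). Il1rap makes both a membrane and a soluble product, and the gene counts do not separate its 7 annotated transcripts.

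Sigirr, the dampening receptor, had 14.4, 12.1 and 10.6 CPM in VAS + H2O, 12.5, 10.5 and 9.01 CPM in IMQ + H2O and 8.09, 8.51 and 10.9 CPM in IMQ + XYF. Its means were 12.4 ± 1.90, 10.7 ± 1.77 and 9.16 ± 1.51 CPM (SD, n = 3), and neighbouring groups overlapped. In IMQ + H2O the log2 fold change was -0.23 (95% interval -0.65 to 0.20, adjusted p = 0.395 by edgeR).

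On the IL-18 side, the receptor chain Il18r1 was low, at 2.12, 1.37 and 2.72 CPM in VAS + H2O, 2.0, 2.65 and 3.10 CPM in IMQ + H2O and 3.13, 1.36 and 1.85 CPM in IMQ + XYF. It varied most of the 7 genes, by 2.26-fold over the libraries, and its fold change had the widest interval, from -0.41 to 1.04 on the log2 scale around 0.31 (adjusted p = 0.494 by edgeR). Changes within this interval were not excluded. Il18bp, the IL-18 binding protein, had 5.95, 5.10 and 5.05 CPM in VAS + H2O, 5.56, 5.12 and 5.77 CPM in IMQ + H2O and 5.19, 6.38 and 3.79 CPM in IMQ + XYF. Its groups overlapped, and the log2 fold change in IMQ + H2O was 0.02 (95% interval -0.35 to 0.38, adjusted p = 0.946 by edgeR). Il18bp overlaps the far more abundant Numa1, on the opposite strand, by 80 bases, and whether reads there were counted by strand is not given in the sources used here.

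Il1rl1, the IL-33 receptor, had no count in 7 of the 9 libraries. IMQ + H2O replicate 3 held 6 counts (0.14 CPM) and IMQ + XYF replicate 1 held 18 counts (0.28 CPM), and the gene did not enter any test. In the other 7 libraries a count of 0 allows up to the floor given above. The same 2 libraries had the highest levels of Csf3r, the receptor for the neutrophil growth factor G-CSF, at 38.0 and 22.9 CPM, against at most 6.10 CPM elsewhere. Summed over the neutrophil list, the order differed: IMQ + H2O replicate 3 was highest at 2179 CPM and IMQ + XYF replicate 1 had 725 CPM. IMQ + XYF replicate 2, with no Il1rl1 count, had 918 CPM. By the mean log2 CPM over the same list, the 2 libraries with Il1rl1 counts were highest. IMQ + H2O replicate 3 was at 5.41 and IMQ + XYF replicate 1 at 4.30, against at most 3.17 elsewhere and 1.93 in IMQ + XYF replicate 2. Ly6g and Retnlg were at 0 in every VAS + H2O library. Mast cells are a known site of Il1rl1. Their list of 7 markers summed to 2.74 to 5.73 CPM, most of it Kit. Ms4a2 and Fcer1a were at 0 in all 9 libraries, but 3 to 5 of the 7 reached the floor in each library. The number was 4 in IMQ + H2O replicate 3 and 5 in IMQ + XYF replicate 1. Libraries without an Il1rl1 count reached the same numbers, with 5 in IMQ + H2O replicate 2 and 4 in VAS + H2O replicate 2. The part of neutrophils or mast cells in the counts of Il1rl1 was not tested.

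Some of the ligands that these receptors bind passed the test. The list of 37 other genes of the pathway, all of which were tested, held 5 DEGs in IMQ + H2O against VAS + H2O by edgeR, all higher, and 10 at adjusted p alone, all higher, where 3.64% of all genes were higher DEGs and 12.7% were higher at adjusted p alone. Il1a, a ligand of Il1r1 and Il1r2, rose by 2.15 on the log2 scale (adjusted p = 0.00575), from a mean of 5.76 ± 0.571 CPM in the control to 25.8 ± 7.64 CPM (SD, n = 3). The Il1rl2 ligands Il36a (listed as Il1f6) and Il36g (listed as Il1f9) rose by 1.81 and 1.14 on the log2 scale (adjusted p = 0.00931 and 0.00575), from 8.16 to 28.9 CPM and from 55.2 to 123 CPM. Outside the ligands, the adaptor Myd88 rose from 46.8 to 94.6 CPM, by 1.0 on the log2 scale (adjusted p = 0.00709), and the inflammatory caspase Casp4 from 2.17 to 5.24 CPM, by 1.26 (adjusted p = 0.0385). The other 5 at adjusted p alone were Irak3, Irak4, Nfkb1, Rela and Tnfaip3. The count of 5 DEGs fell to 3 without VAS + H2O replicate 1, VAS + H2O replicate 2 or IMQ + H2O replicate 3, and to 0 with the cartilage and dermal fibroblast score as a covariate, a score that itself separates these groups.

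The other ligands and antagonists did not pass. Of the 10 in that list, 7 had an unadjusted p under 0.05 by edgeR, against 37.9% of all genes. Il1b had 3.49, 5.86 and 3.04 CPM in VAS + H2O and 7.39, 14.4 and 193 CPM in IMQ + H2O, with a log2 fold change of 4.11 (95% interval 1.11 to 7.10, adjusted p = 0.0591 by edgeR). IMQ + H2O replicate 3, which held the highest of these values, also had the highest sum of the neutrophil marker list. Il33, the ligand of Il1rl1, had a log2 fold change of 0.96 (adjusted p = 0.0907), and Il36b (listed as Il1f8) of 0.66 (adjusted p = 0.134). Among the natural antagonists, the log2 fold change was 0.30 for Il1rn (adjusted p = 0.0798), which blocks Il1r1, and 0.78 for Il36rn (listed as Il1f5, adjusted p = 0.0510), which blocks Il1rl2. Il18 had 0.02 (95% interval -0.61 to 0.64, adjusted p = 0.971), and Il1f10 had -0.52 (adjusted p = 0.171). Il18rap, the second chain of the IL-18 receptor, had 1.62 with an interval of -0.55 to 3.79 (adjusted p = 0.242 by edgeR). It held 0.59, 1.12 and 0.54 CPM in VAS + H2O and 0.38, 1.01 and 5.53 CPM in IMQ + H2O, where replicate 3 alone lay above the control libraries. No test of the difference between the ligand and receptor lists was made.

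**Figure D3:**
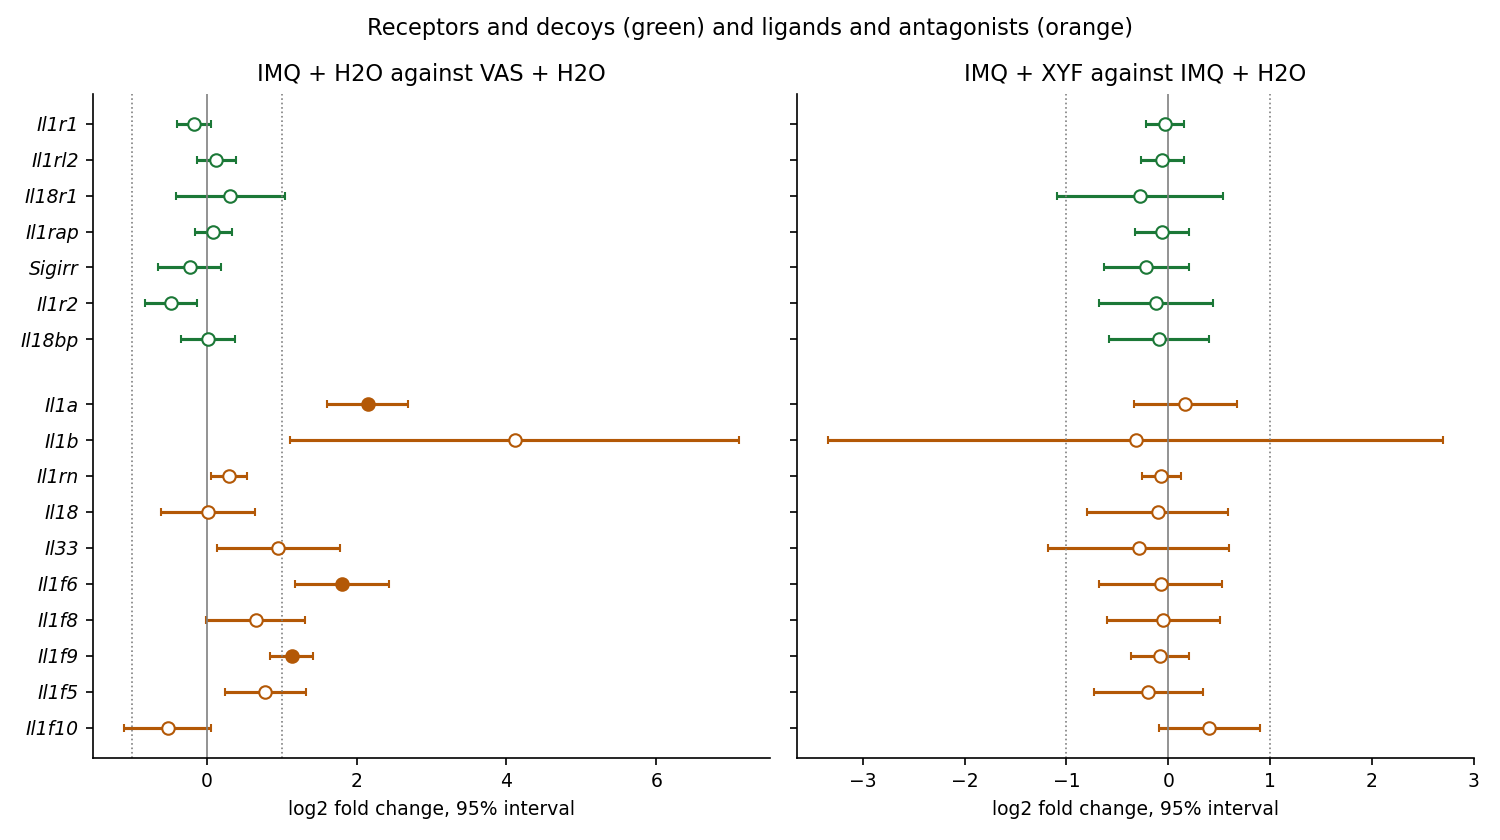
Log2 fold changes with 95% intervals for the 7 tested receptors and decoys (green) and the 10 ligands and antagonists (orange), for IMQ + H2O against VAS + H2O on the left and IMQ + XYF against IMQ + H2O on the right, with filled points at adjusted p of at most 0.05 and different x ranges. The filled points are Il1a, Il1f6 and Il1f9 on the left, and there is none on the right; dotted lines mark a log2 change of 1.

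With XYF, no difference beyond the spread between libraries was found in any of these genes. Between IMQ + XYF and IMQ + H2O, 0 of the 7 tested genes were DEGs by edgeR, 0 had an unadjusted p under 0.05 and DESeq2 called 0, and all 7 overlapped between the groups. Of all 17793 genes, 0.0281% were DEGs, 5.43% had an unadjusted p under 0.05 and 10.7% did not overlap. Il1r1 had a log2 fold change of -0.03 (95% interval -0.22 to 0.16), Il1rl2 of -0.06 (-0.27 to 0.15) and Il1rap of -0.06 (-0.33 to 0.20). The intervals of these 3 lay within 1.3-fold either way in this fit, though with the cartilage and dermal fibroblast score as a covariate Il1rap was at -0.50. Il1r2 had -0.12 (-0.68 to 0.44), Sigirr -0.22 (-0.63 to 0.20), Il18bp -0.09 (-0.59 to 0.40) and Il18r1 -0.28 (-1.09 to 0.54), each with an adjusted p of 0.9999 by edgeR. With that covariate, which separates these groups, Il1r2 was at -1.33, Il18r1 at -1.25 and Il18bp at -0.88 on the log2 scale, each again with an adjusted p of 0.9998 by edgeR. All 7 point estimates were below 0, and with each library left out in turn, 4 of the 7 (Il1r1, Il1r2, Il1rap and Il18bp) changed sign at least once. Of the 37 pathway genes, 0 were called by edgeR or by DESeq2 and 0 had an unadjusted p under 0.05. Il1a, for example, had 25.8 ± 7.64 CPM in IMQ + H2O and 29.0 ± 3.27 CPM in IMQ + XYF.

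IMQ + XYF was also set against the control, where Il1r2 was again the member of the group with the lowest fold change. This comparison shares its libraries with both of the others, so it is no independent evidence. 0 of 7 were DEGs by edgeR, 0 passed at adjusted p alone and DESeq2 called 0 DEGs, beside 7.64% DEGs and 28.7% at adjusted p alone of all 17954 genes. 2 of 7, Il1r2 and Sigirr, had an unadjusted p under 0.05, against 41.3% of all genes. Il1r2 was at -0.59 ± 0.20 (SE) on the log2 scale, with a 95% interval of -1.07 to -0.11, an adjusted p of 0.0695 by edgeR and no overlap, as for 22.4% of all genes in that direction. By DESeq2 its adjusted p was 0.0202, and without IMQ + XYF replicate 1, the highest of its group, edgeR gave -0.82 with an adjusted p of 0.0167. Sigirr was at -0.43 (95% interval -0.85 to -0.02, adjusted p = 0.106 by edgeR) with 1 control library inside the IMQ + XYF range. The pathway list held 5 DEGs, all higher (Il1a, Il1b, Il1f6, Il1f9 and Casp4), and 13 at adjusted p alone, of which 12 were higher, where 4.58% of all genes were higher DEGs and 16.7% were higher at adjusted p alone. The count of 5 fell to 3 without VAS + H2O replicate 1, VAS + H2O replicate 2 or IMQ + XYF replicate 2.

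Ratios inside a library do not depend on its scaling, and they set each decoy against the receptor of the same ligand. The log2 ratio of Il1r2 to Il1r1 counts was 0.76, 0.30 and 0.56 in VAS + H2O, -0.07, 0.31 and 0.40 in IMQ + H2O and 0.51, 0.17 and -0.37 in IMQ + XYF. Il1r2 had more counts than Il1r1 in all control libraries and fewer in 1 library of each imiquimod group, but the groups overlapped. These counts are not corrected for exon length, which is 1908 bases for Il1r2 and 6363 for Il1r1. Per kilobase of exon, Il1r2 lay above Il1r1 without overlap in IMQ + H2O (3.92-fold on the means) and in IMQ + XYF (3.68-fold). The difference of means was -0.33 for IMQ + H2O against VAS + H2O (exact two-sided permutation p = 0.3) and -0.11 for IMQ + XYF against IMQ + H2O (exact p = 0.7), and with 3 libraries against 3 the smallest p possible is 0.1. The log2 ratio of Il18bp to Il18r1 averaged 1.42 ± 0.50, 1.10 ± 0.32 and 1.33 ± 0.79 (SD, n = 3). Its differences of -0.32 (exact p = 0.5) and 0.22 (exact p = 0.8) were within the spread between libraries.

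The ratio of Il1r2 to Il1rl2, neighbours in level, was added after the values were seen and is given as a description only. It was 0.459, 0.363 and 0.350 in VAS + H2O, 0.216, 0.281 and 0.262 in IMQ + H2O and 0.318, 0.250 and 0.168 in IMQ + XYF. Both imiquimod groups lay wholly below the control libraries, with mean log2 differences of -0.63 and -0.71 against VAS + H2O. Between the imiquimod groups the mean difference was -0.09, and they overlapped.

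**Figure D4:**
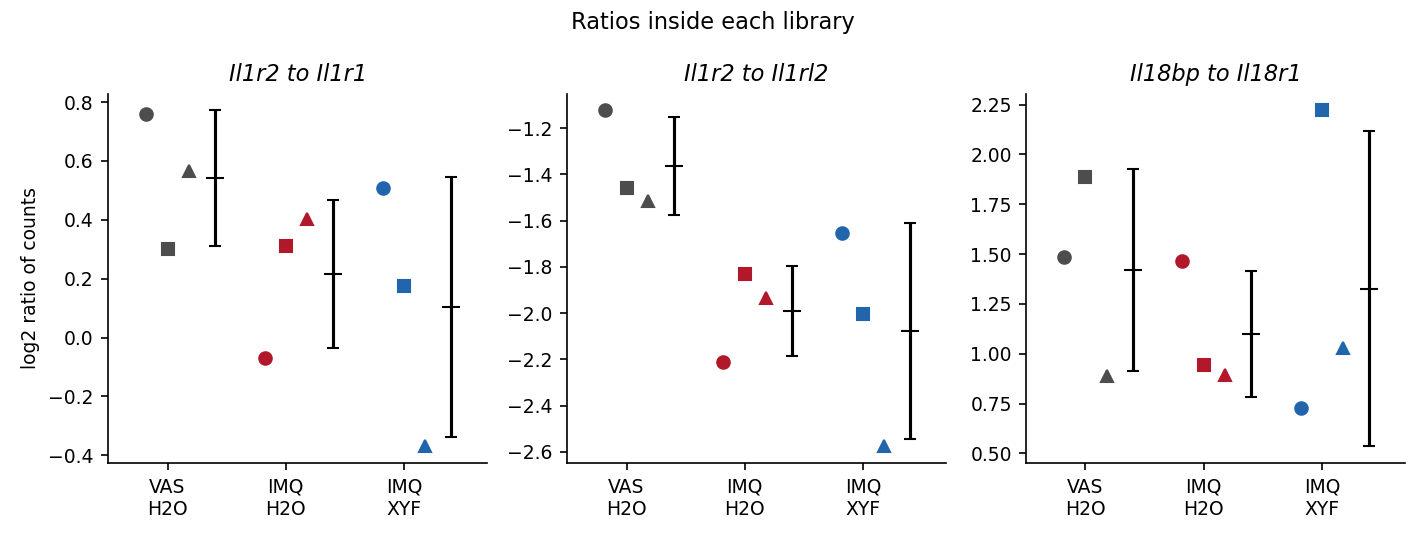
Log2 ratio of counts inside each of the 9 libraries for Il1r2 to Il1r1, Il1r2 to Il1rl2 and Il18bp to Il18r1, with circles, squares and triangles for replicates 1, 2 and 3 and bars for mean ± SD (n = 3). The groups overlap in the outer panels, and in the middle panel the control libraries lie above all imiquimod libraries; that pair was chosen after its values were seen.

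Among 14769 genes compared over the 9 libraries, the 2 genes most like each receptor or decoy in log2 CPM had Pearson r of 0.90 to 0.97, and the libraries share scaling and group. For Il1r2 they were Prf1 and 1810026B05Rik (0.97 for both after rounding), for Sigirr Vps54 (0.97) and Phkg2 (0.96), and for Il1r1 Hoxa2 (0.96) and Primpol (0.96). For Il18bp they were Fam131c (0.94) and Homez (0.92), and for Il1rl2 Ccdc22 (0.94) and Taf6 (0.90). Il1rap was nearest to the pseudogenes Ppp1r2-ps2 (0.93) and Rps23-ps1 (0.92), and Il18r1 to Gm9320 (0.91) and Pgap3 (0.90). None of the 14 was itself a receptor or ligand of the family. Between the 7 genes themselves, r was 0.75 at its highest, for Il1rap with Il18r1, and -0.52 at its lowest, for Il1rl2 with Sigirr.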

How the data were processed

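RNA was sequenced from epidermal ear sheets in 9 libraries, grouped by their deposited labels. The methods and labels name TruSeq libraries, alignment with STAR 2.5 to GRCm38, the annotation of Ensembl release 90, StringTie, Cuffnorm and DESeq 1.22.1. The labels call the libraries strand-specific, and the tool and strand setting of the counting are not given in the sources used here. The authors deposited whole-number counts per gene without normalization, for 52550 genes, of which 21327 have no count. Replicates differed by more than sampling noise (chi-square per gene 23.8 to 75.0).

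Each comparison was fitted on its own 6 libraries in R 4.3.3 with edgeR 4.0.16 (TMM, filterByExpr, glmQLFit, glmQLFTest), with p-values adjusted over all genes tested, and checked on simulated data. Of 200 genes simulated with a log2 change of 1.5, edgeR called 65% as DEGs for IMQ + H2O against VAS + H2O. It called 61% for IMQ + XYF against IMQ + H2O and 70.5% for IMQ + XYF against VAS + H2O, so changes of that size could be missed. Values per library used TMM factors (0.956 to 1.06) over genes passing in all 9. Positions and lengths were taken from GENCODE release M21. Alternatives were DESeq2 1.42.0, RLE size factors, a minimum of 10 counts per library or no low-count filter, 1 fit of all 9 libraries, the replicate number as a block, adjusted p alone, a cartilage and dermal fibroblast score as covariate, and each library left out. For ratios, 0.5 was added to each count, with 1 as the alternative.

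The receptor genes, the pathway list and the marker lists were chosen with earlier results of these data known. Named genes were the 8 receptors and decoys, the ligands and antagonists, other pathway DEGs of the first 2 comparisons, and the 2 genes most like each receptor; markers are named as checks, and the other pathway genes at adjusted p alone were named after their values were seen.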

Additional observations from a re-analysis of the deposited data

How the results depend on the processing

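None of the receptor and decoy genes was a DEG under any alternative tried, in any comparison. Over the alternatives that kept all libraries, other than the covariate, no fold change of these genes changed sign, and those that crossed an adjusted p of 0.05 were the 2 DESeq2 values of Il1r2 given above. The pathway list gave 10 and 13 genes at adjusted p alone for IMQ + H2O and IMQ + XYF against VAS + H2O, and 3 to 6, 0 to 0 and 3 to 5 DEGs with each library left out in turn, for IMQ + H2O against VAS + H2O, IMQ + XYF against IMQ + H2O and IMQ + XYF against VAS + H2O.

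The cartilage and dermal fibroblast score was 2.73 to 4.92 in VAS + H2O, 1.32 to 1.60 in IMQ + H2O and 2.62 to 3.52 in IMQ + XYF, so in the first 2 comparisons its effect and that of the treatment cannot be told apart. With it, the pathway list had 0 DEGs in IMQ + H2O against VAS + H2O. There the sign changed for Il1r1 (0.0586), Il1rap (-0.0311), Il18r1 (-0.48) and Il18bp (-0.10). It also changed in IMQ + XYF against IMQ + H2O for Il1r1 (0.0487), Il1rl2 (0.21) and Sigirr (0.25), and in IMQ + XYF against VAS + H2O for Il18r1 (-0.0014). In IMQ + XYF against IMQ + H2O the other 4 genes kept their sign and moved further from 0, Il1r2 from -0.12 to -1.33, Il18r1 from -0.28 to -1.25, Il18bp from -0.09 to -0.88 and Il1rap from -0.06 to -0.50. The cause was not tested.

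With each library left out, Il18bp ran from -0.0192 to 0.10 in IMQ + H2O against VAS + H2O. In IMQ + XYF against IMQ + H2O, Il1r1 ran from -0.0666 to 0.0178, Il1r2 from -0.38 to 0.0588, Il1rap from -0.16 to 0.0282 and Il18bp from -0.28 to 0.0793. In IMQ + XYF against VAS + H2O, Il1rap ran from -0.0309 to 0.12, Il18r1 from -0.35 to 0.30 and Il18bp from -0.23 to 0.11. The log2 ratio of Il1r2 to Il1r1 differed by -0.45 to -0.18 and -0.31 to 0.13 in the first 2 comparisons, and that of Il18bp to Il18r1 by -0.59 to -0.09 and -0.22 to 0.52. With the longest transcript as length, 4 genes changed rank.

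Same-numbered libraries of different groups correlated at -0.13 to 0.11, so the numbers were not taken as pairing. With the replicate number as a block, 0 receptor and decoy genes and 4, 0 and 4 pathway genes were DEGs. The largest fold change of a receptor or decoy was then -0.63, for Il1r2 in IMQ + XYF against VAS + H2O (adjusted p = 0.0616 by edgeR). The ratio differences (-0.33, -0.11, -0.32 and 0.22) are the same with this block whatever the values, so it was no check of them. With 3 libraries a group, the interval of Il18r1 was the widest among the receptors and decoys, and only large changes of it could have been called.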
